A study of Mus musculus with 6 samples.

Results

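The cytosolic ribosomal proteins are the protein subunits of the ribosome that translates nuclear-encoded mRNAs. Their genes were taken by symbol from the deposited count table: Rps or Rpl followed by a digit, together with Rplp0, Rplp1, Rplp2 and Rpsa, leaving out S6 kinases (Rps6k), Rps19bp, Rpl7l and numbered pseudogenes. This gave 95 of 33157 rows, of which 39 belong to the small (40S) subunit, 53 to the large (60S) subunit and 3 to the P stalk. The rule uses symbols and no measured value, but the family was chosen with earlier results of these data known. The rule also retains some retrotransposed copies and pseudogene symbols without a number, such as Rps4x-ps, Rpl6l and Rps3a2.

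The cells were group 3 innate lymphoid cells (ILC3s), interleukin-22-producing lymphocytes of the gut mucosa, sorted from wild-type mouse small intestine. The sort took CD45+ cells that lacked lineage markers and KLRG1, carried CD127, and had dim CD45 with high CD90.2. All cultures received recombinant mouse interferon-γ (IFN-γ) at 20 ng/mL for 4 h. The IGF-1 group also received insulin-like growth factor 1 at 200 ng/mL and the control group did not, with 3 libraries per group. The sample labels name the groups as Ctrl and Igf1 only, and the presence of IFN-γ in both is from the series' design text. Every comparison is thus of IFN-γ plus IGF-1 with IFN-γ alone, and no culture without IFN-γ is among the samples. The age and number of the mice, and whether the libraries came from separate animals or cultures, are not stated. The p-values are therefore based on the variation among these 6 libraries alone, and that variation could be technical.

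Ribosomal protein mRNAs begin with a 5′ terminal oligopyrimidine (TOP) tract, a C followed by an unbroken run of C and T at the transcription start. Receptors for IGF-1 signal through PI3K and AKT to the kinase complex mTORC1, which releases translation of TOP mRNAs through the binding protein LARP1 and the 4E-BPs and also activates the S6 kinases that phosphorylate Rps6. Much of this control acts on translation, which RNA counts do not measure. The proteins are joined to rRNA largely in the nucleolus, and the subunits mature further on their way to the cytoplasm.

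The TOP tract is the sequence that the family shares, and a few starts are shown to let the members be compared. Of the 95 members, 67 matched a RefSeq promoter entry (GRCm38.p6), giving 79 annotated starts. A C followed by at least 4 pyrimidines, beginning within 5 bases of the annotated start, was found at 33 of the 79 starts (41.8%), and at 17.3% of all 32851 promoter entries of the same length. Annotated starts can be a few bases away from those that cells use. Each sequence below runs from 10 bases before the annotated start to 20 bases from it on, with the pyrimidine run in capitals. Rps6 is the S6 kinase substrate, Rpl15 had the smallest p of the family, Rpl38 differed most between the IGF-1 libraries, Rplp2 is a P stalk protein, Rps10 is a member with few counts, and Rps27, Rps27rt, Rps27l and Rpl39l are copies or partners of each other or of a core member.
Rps6 (chr4:86857348-86857377, minus strand): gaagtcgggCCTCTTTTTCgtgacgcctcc
Rpl15 (chr14:18270967-18270996, minus strand): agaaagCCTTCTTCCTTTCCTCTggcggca
Rpl38 (chr11:114668570-114668599, plus strand): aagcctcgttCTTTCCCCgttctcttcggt
Rplp2 (chr7:141447641-141447670, plus strand): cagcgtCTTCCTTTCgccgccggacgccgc
Rps10 (chr17:27635225-27635254, minus strand): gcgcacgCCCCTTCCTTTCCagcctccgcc
Rps27 (chr3:90213629-90213658, minus strand): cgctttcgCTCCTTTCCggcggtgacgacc
Rps27rt (chr9:114982720-114982749, minus strand): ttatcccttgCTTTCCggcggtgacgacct
Rps27l (chr9:66946076-66946105, plus strand): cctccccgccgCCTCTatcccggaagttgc
Rpl39l (chr16:10170218-10170247, plus strand): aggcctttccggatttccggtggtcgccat

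The run is present in 8 of these 9 windows and absent from that of Rpl39l. The windows shown were picked and hold the run more often than the family does, at 33 of 79 starts (41.8%). Rpl10, Rps19, Rpl37a, Rplp0 and Rpsa are among the members without it. Rps27l has another annotated start, at chr9:66946403-66946432, whose window holds no such run. Rps27 and Rps27rt, which lie on different chromosomes, share an unbroken stretch of 19 bases in these windows that includes the end of the run. In the 300-base windows, on both strands and with overlapping matches allowed, CCGGAAG was found in 34.2% of the members' entries and 8.86% of all entries. GGGCGG was found in 57.0% and 35.7%, AAGATGGC in 8.86% and 2.75%, and TATAAA in 10.1% and 13.6%. A match describes the letters only and is not evidence of binding.

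Library totals ranged from 32573713 to 39206449 counts. The ILC3 marker list was detected in full (13 of 13 genes), with summed levels of 5047 to 5373 CPM (counts scaled to a fixed library total) in the control libraries and 5419 to 5871 in the IGF-1 libraries. By gene, 4 of the 13 were above 0 with IGF-1 and 9 below, with a median log2 fold change of -0.09. At an edgeR adjusted p under 0.05, 1 of them was higher. Summed T cell markers were at 112 to 158 CPM and ILC2 markers at 10.3 to 16.9. NK and ILC1 markers summed to 79.5 to 104 CPM in control and 126 to 150 with IGF-1, without overlap, with Eomes and Klra8 at 0. Of the 6 tested, 4 were above 0 and 2 below, and 1 was higher at that adjusted p. Myeloid markers summed to 3.9 to 10.2 CPM, and stromal and endothelial markers to 79.4 to 114. Epithelial markers summed to 33.8 to 48.7 CPM in control and 16.3 to 23.7 with IGF-1, also without overlap. Of the 5 tested, 1 was above 0 and 4 below, and 1 was lower at that adjusted p, which 0.497% of all genes tested reached. B and plasma cell markers summed to 34.2 to 62.4 CPM in 5 libraries and to 572 in control replicate 3, with Ms4a1 at 0. Jchain had 18629 counts in that library and 4 to 7 in each of the others. Ighm, with 534 to 1017 counts per library, was lowest in control replicate 3, so the markers did not rise together. The part of these cells in the results was not tested. IGF-1 replicate 3 stood apart in the ribosomal protein genes themselves and the summaries of the family and its subunits are given with and without it.

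Of the 95 members, 88 passed the filter on low counts, 81 had a mean of at least 10 CPM and 73 of at least 100 CPM. The other 7 were almost silent: Rpl10l, Rpl32l and Rps12l1 had no counts, which in any library allows at most 3 counts of its total, and Rpl32-ps had 3 counts and Rps4l-ps 4 over all libraries. Rps23rg1 had 12 counts, all in control replicate 3. Rpl3l, the form of Rpl3 known from muscle, had 27 counts, of which 19 were in control replicate 3 and 8 in IGF-1 replicate 3.

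Ribosomal protein mRNAs took about the same part of the counts in both groups. All member rows together held 4.92%, 5.31% and 5.07% of the counts in control replicates 1 to 3 and 5.10%, 5.31% and 4.23% in IGF-1 replicates 1 to 3. The control mean was 5.10% ± 0.195 (SD, n = 3) and the IGF-1 mean 4.88% ± 0.576 (SD, n = 3), or 5.21% without IGF-1 replicate 3. The groups overlapped, and their difference of -0.217 percentage points was smaller than the spread between libraries of a group (pooled SD 0.43). In bulk RNA, fewer cells of a type and less RNA per cell cannot be told apart, and a share of counts does not show the amount of RNA per cell.

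**Figure D1:**
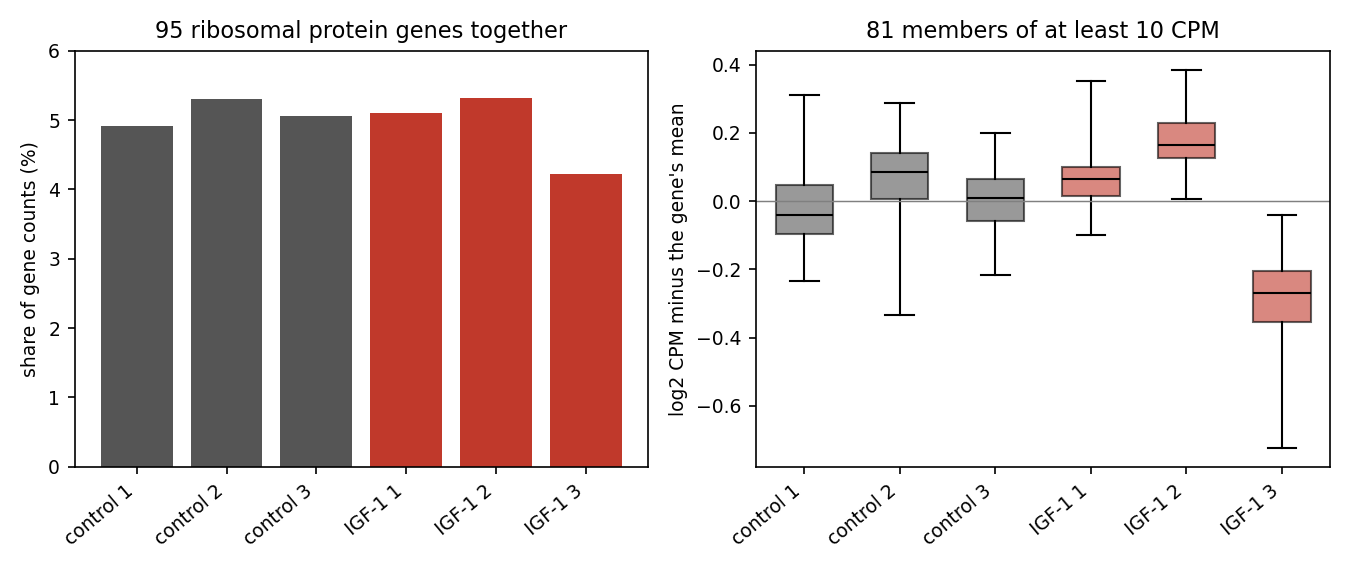
Left, share of each library's counts (percent) in all ribosomal protein rows, 1 bar per library. Right, log2 CPM of each member of at least 10 CPM as a difference from its own mean over the 6 libraries, with the line at the median, the box over the middle of the distribution and whiskers to the extremes. IGF-1 replicate 3 has the lowest share, 4.23%, against 4.92% to 5.31% in the other 5 libraries.

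No ribosomal protein gene passed the test between IGF-1 and control. Of the 88 members tested, 0 had an adjusted p under 0.05 by edgeR's quasi-likelihood test with Benjamini-Hochberg adjustment over 13483 genes, where 0.497% of all genes tested passed (31 higher, 36 lower). The smallest adjusted p was 0.578, for Rpl15. No member had an unadjusted p under 0.05 (0 of 88), a level that 11.8% of all genes tested reached, and DESeq2 and limma-voom also gave 0 members at either level. The median log2 fold change of the members was -0.03, with 35 above 0 and 53 below, and that of all genes tested was -0.01.

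The 6 libraries bounded the change of most members closely. Among members of at least 10 CPM the log2 fold changes ran from -0.23 (Rps21) to 0.21 (Rps27l), and their standard errors from 0.11 to 0.25 with a median of 0.14. The 95% confidence interval of the fold change lay within 1.5-fold in either direction for 76 of these 81 members and within 2-fold for all 81. Among the 73 members of at least 100 CPM, 0 were higher and 0 lower at an unadjusted p under 0.05. Among the 2372 other genes at that level, 273 were higher and 204 lower, with a median log2 fold change of 0.06. The control and IGF-1 libraries did not overlap for 3 of the 88 members, against 18% of all genes tested (8.81% higher, 9.17% lower). These were Rpl39l (higher with IGF-1), Rps10 and Rps3a3 (lower), all under 10 CPM, and there were 0 such members among the 81 above that level.

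**Figure D2:**
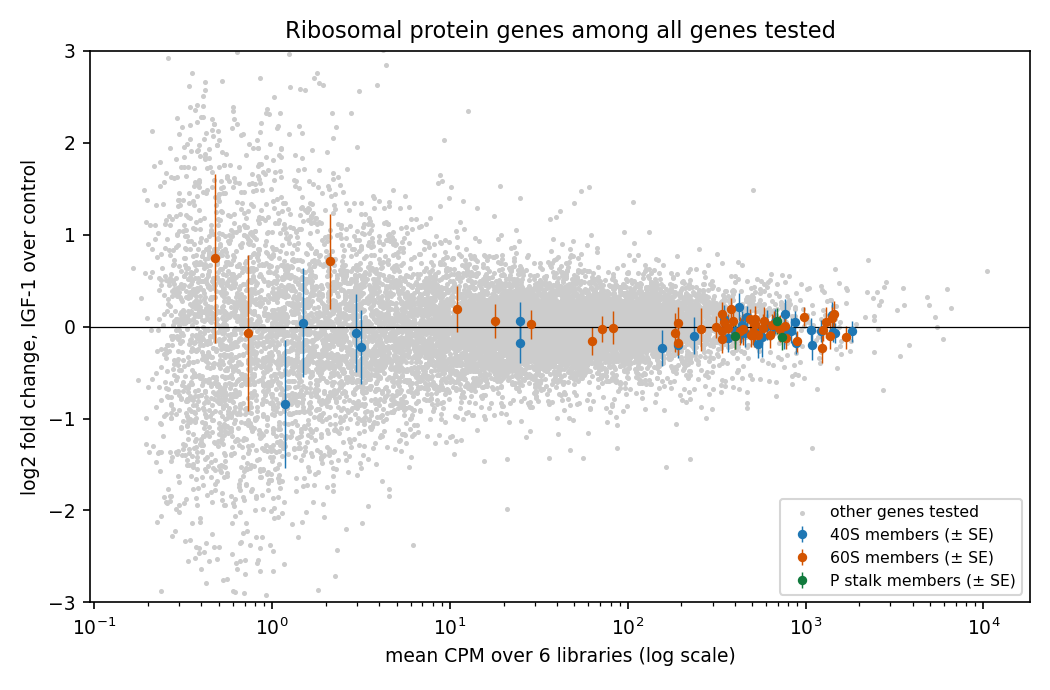
Log2 fold change, IGF-1 over control, against mean CPM on a log axis for all genes tested, with ribosomal protein genes picked out; the vertical axis is limited to 3 in either direction and a few other genes fall outside it. The members above 10 CPM lie between -0.23 and 0.21, in a narrow band about 0.

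The direction of the small family shift changed when single libraries were left out. Without IGF-1 replicate 3 the members' median log2 fold change became 0.10, with 70 above 0 and 18 below, and that of all genes tested was -0.02. Without control replicate 2 it became 0.01, with 48 above 0 and 40 below, and without IGF-1 replicate 2 it became -0.13, with 16 above 0 and 72 below. With total counts in place of the TMM scaling, 25 members were above 0 and 63 below. In none of these fits did a member pass the adjusted threshold. Among genes of at least 10 CPM, members of up to 300 coding bases had a median of -0.11 on all libraries. Other genes of that length had 0.15. From 300 to 450 bases the medians were -0.05 and 0.14, and from 900 to 1500 bases, with 4 members, 0.10 and -0.001. In IGF-1 replicates 1 and 2 against control, the medians up to 300 bases were 0.13 and 0.27. They were 0.09 and 0.24 from 300 to 450 bases, and 0.17 and -0.01 from 900 to 1500. These differences were not tested.

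Without IGF-1 replicate 3, 4 members had an unadjusted p under 0.05, all higher with IGF-1, against 6.35% of all 13994 genes then tested. They were Rps27l, with a log2 fold change of 0.36, Rps19 at 0.27, Rpl10 at 0.28 and Rpl15 at 0.28. Their edgeR adjusted p-values were 0.267, 0.278, 0.285 and 0.313, while 0.121% of all genes passed. On the CPM scale, 22 of the 81 members of at least 10 CPM were at a higher level in both remaining IGF-1 libraries than in all 3 controls, and 0 were at a lower level in both. Of all 8565 genes tested at that level, 19.5% were higher in this sense and 16.8% lower.

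IGF-1 replicate 3 had less of nearly every ribosomal protein mRNA. It was the lowest of the 6 libraries in 72 of the 81 members of at least 10 CPM and the highest in 0, whereas IGF-1 replicate 2 was the highest in 48. Among all 8565 genes tested at that level, replicate 3 was the lowest of the 6 in 1336. Its log2 CPM was below both other IGF-1 libraries in 81 of the 81, and in 86 of all 88 tested members, with a median difference of -0.39 from the mean of the other two. The same was true of 4518 of all 13483 genes tested, with a median difference of 0.03. The cause of this difference was not tested.

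Within the family, the difference of that library went with coding length. Rpl38, a small protein of the large subunit with a coding sequence of 210 bases, was at 235, 282 and 266 CPM in the control libraries and at 286, 328 and 152 in the IGF-1 libraries. Its log2 level in IGF-1 replicate 3 was -1.01 from the mean of the other two IGF-1 libraries. Rps29, a zinc-binding protein of the small subunit with 168 coding bases, was at 555, 611 and 610 CPM in control and 606, 688 and 342 with IGF-1, a difference of -0.92 in replicate 3. In both genes the other IGF-1 libraries lay within or above the control range and replicate 3 lay below all others.

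In Rps28, Rpl39 and Rps21, also short, replicate 3 was again the lowest library. Rps28 was at 232, 259 and 244 CPM in control and at 265, 272 and 149 with IGF-1. Rpl39 was at 169, 212 and 186 CPM in control and at 197, 225 and 119 with IGF-1. Rps21 was at 147, 185 and 176 CPM in control and 155, 179 and 98.3 with IGF-1. The differences of replicate 3 were -0.85, -0.82 and -0.76 on the log2 scale. At the other end, Rpl3, a core protein of the peptidyl transferase centre with 1209 coding bases, was at 965, 934 and 913 CPM in control and 994, 1090 and 946 with IGF-1, a difference of -0.14. Rpl7a and Rps3 had differences of -0.12 and -0.13. The shortest member, Rpl41 with 138 coding bases, had -0.64, and the longest, Rpl4 with 1257, had -0.22.

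Over 79 members with a coding length, Pearson's r between log2 coding length and this difference was 0.84 and Spearman's rho 0.82. Over 8005 other genes of at least 10 CPM they were 0.32 and 0.33. These are correlations across genes of the same libraries, which are not independent, and are given as a description. The 10 members of up to 300 coding bases had a median difference of -0.72, and 152 other genes of that length had -0.39. From 300 to 450 bases the medians were -0.43 in 29 members and -0.27 in 379 others, and from 600 to 900 bases -0.27 in 20 members and -0.06 in 1126 others. The members were thus lower in this library than other genes in each length class by median, which was not tested. These other genes were not matched to the members for level. A list of 26 short abundant mRNAs that encode no ribosomal protein had a median difference of -0.51, beside -0.39 for the 88 tested members. The drop against the other IGF-1 libraries was therefore not particular to the family. Against all 6 libraries, replicate 3 was the lowest in 14 of these 26 mRNAs and in 76 of the 88 members. The 26 mRNAs summed to 37230 CPM in replicate 3 and to 32770 to 41630 in the controls.

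**Figure D3:**
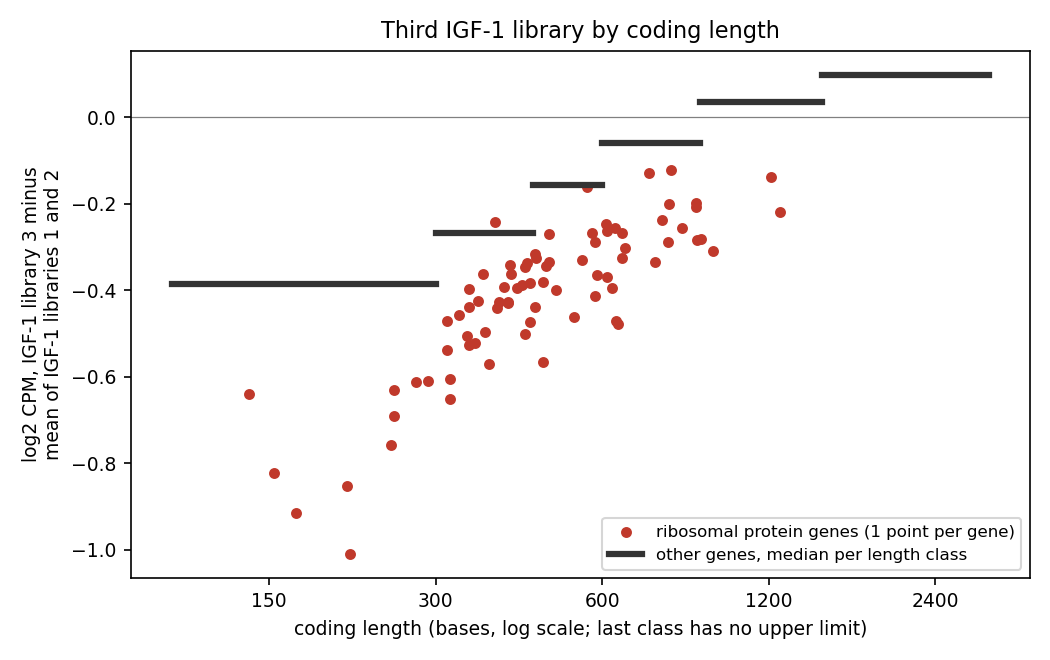
Log2 CPM in IGF-1 replicate 3 minus the mean of IGF-1 replicates 1 and 2, against coding length in bases on a log axis, for members and for other genes of at least 10 CPM. Differences are largest among short members, such as -1.01 for Rpl38 at 210 bases, and smaller among long ones; the shortest, Rpl41 at 138 bases, is at -0.64 and the longest, Rpl4 at 1257 bases, at -0.22.

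**Figure D4:**
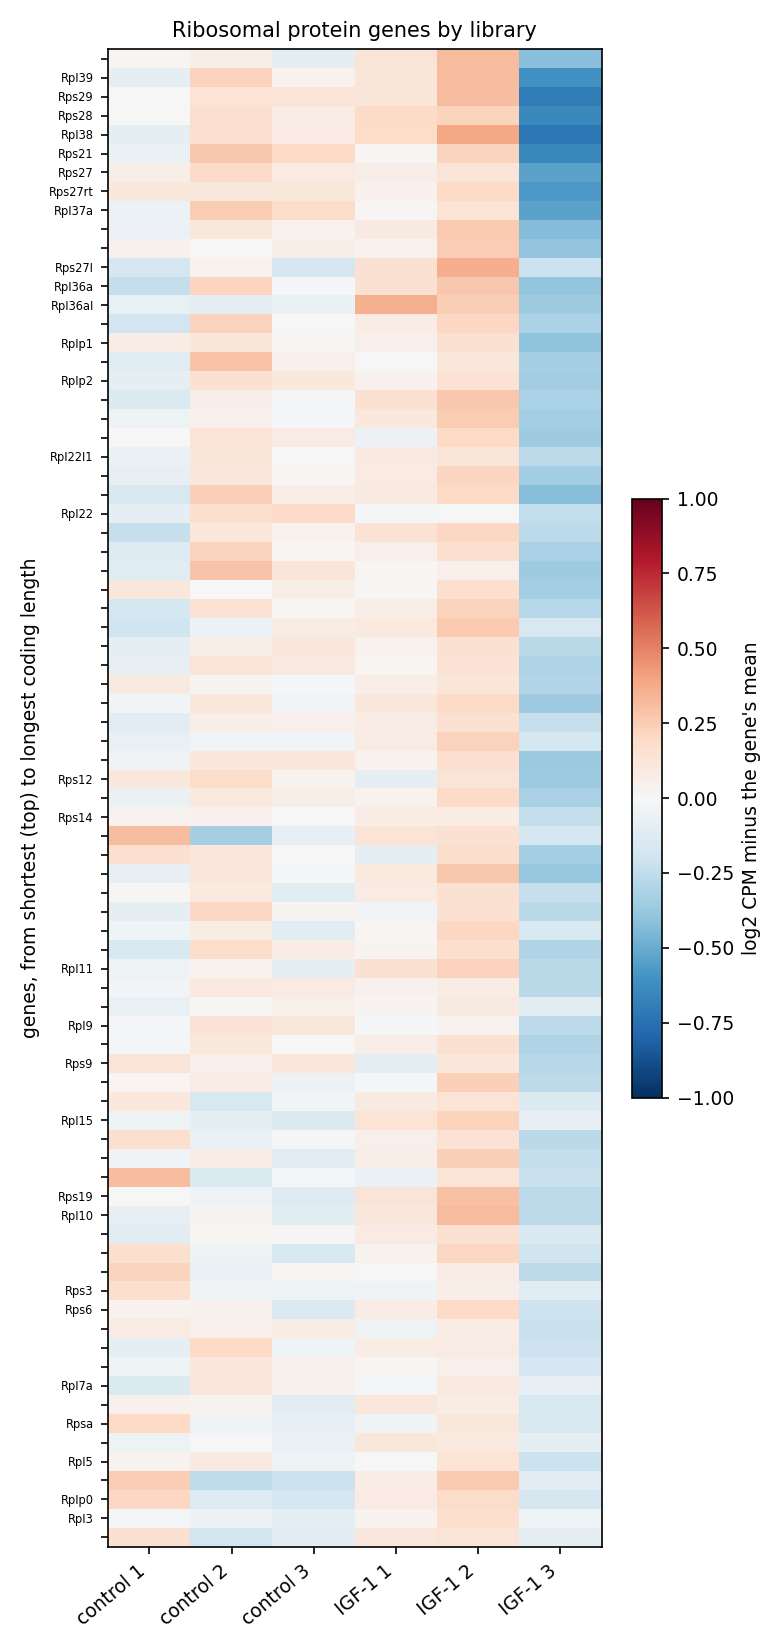
Log2 CPM of 79 members in each of the 6 libraries as the difference from the gene's own mean, in colour, with genes ordered by coding length and some of them labelled. The column of IGF-1 replicate 3 is low in nearly all genes and lowest among the shortest.

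The small subunit, which decodes the mRNA, had 36 tested members with a median log2 fold change of -0.05, of which 13 were above 0 and 23 below. Without IGF-1 replicate 3 the median was 0.07, with 27 above 0 and 9 below. Rps6, the S6 kinase substrate whose window is shown above, was at 894, 898 and 790 CPM in control and 917, 993 and 756 with IGF-1. Its log2 fold change was 0.05 ± 0.13 (SE) with an edgeR adjusted p of 0.934, and the groups overlapped fully. Rpsa, also known as the laminin receptor, was at 1392, 1177 and 1148 CPM in control and 1184, 1315 and 1088 with IGF-1. Its log2 fold change was -0.05 with an edgeR adjusted p of 0.92.

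Rps9, a protein of early small-subunit assembly, had the smallest p of this subunit. It was at 960, 910 and 945 CPM in control and at 821, 944 and 722 with IGF-1, where only replicate 2 reached the control range. Its log2 fold change was -0.18 ± 0.12 (SE) with an edgeR adjusted p of 0.626. Rps12 was at 205, 217 and 195 CPM in control and 180, 209 and 148 with IGF-1, with a log2 fold change of -0.20 and an edgeR adjusted p of 0.641. Rps19, mutated in Diamond-Blackfan anaemia, was at 1405, 1366 and 1284 CPM in control and 1535, 1722 and 1174 with IGF-1, with a log2 fold change of 0.13. Both IGF-1 libraries 1 and 2 lay above the controls for Rps19 and replicate 3 lay below them.

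Rps14, Rps3a1 and Rps3 were among the 5 members with the highest mean CPM, a scale that also grows with transcript length. Rps14 was at 1859, 1874 and 1824 CPM in control and 1912, 1916 and 1539 with IGF-1. Its standard error of 0.11 was close to the lowest of the family, and its log2 fold change was -0.05. Rps3a1 and Rps3 had log2 fold changes of -0.07 and -0.06. In all 3 genes IGF-1 replicate 3 was the lowest library.

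The large subunit, which forms the peptide bond, had 49 tested members with a median log2 fold change of -0.02, of which 21 were above 0 and 28 below. Without IGF-1 replicate 3 the median was 0.12, with 40 above 0 and 9 below. Rpl15 was at 367, 358 and 343 CPM in control and 419, 444 and 360 with IGF-1, a mean of 356 ± 12.3 (SD, n = 3) against 408 ± 43.4 (SD, n = 3). Its log2 fold change was 0.20 ± 0.12 (SE), with a 95% confidence interval of -0.07 to 0.46. IGF-1 replicates 1 and 2 lay above every control and replicate 3 lay among them. Rpl10, which joins the large subunit late in its maturation, was at 1354, 1461 and 1323 CPM in control and 1551, 1789 and 1196 with IGF-1, where replicates 1 and 2 lay above and replicate 3 below every control, with a log2 fold change of 0.13 and an edgeR adjusted p of 0.791.

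Rpl37a was lower by mean but not beyond the spread. It was at 1171, 1455 and 1381 CPM in control and 1229, 1342 and 840 with IGF-1, with a log2 fold change of -0.23 ± 0.17 (SE) and an edgeR adjusted p of 0.655. Rpl9 was at 889, 990 and 970 CPM in control and 885, 918 and 749 with IGF-1, a log2 fold change of -0.16. Rpl5 and Rpl11, which with 5S rRNA bind and inhibit Mdm2 when ribosome assembly is disturbed, had log2 fold changes of -0.04 and 0.09; they were named for this role and not by the rule for named genes.

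The P stalk recruits the elongation factors to the ribosome. Rplp0, its base, was at 788, 624 and 606 CPM in control and 725, 779 and 607 with IGF-1, a log2 fold change of 0.06. Rplp1 was at 763, 788 and 731 CPM in control and 755, 807 and 550 with IGF-1, a log2 fold change of -0.11. Rplp2 was at 371, 440 and 425 CPM in control and 407, 436 and 311 with IGF-1, a log2 fold change of -0.10. The median of the 3 was -0.10 on all libraries and 0.04 without IGF-1 replicate 3. The groups overlapped in all 3, and the smallest edgeR adjusted p among them was 0.834.

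Some core proteins have a paralog that can take their place. Of 7 listed paralogs, 5 were tested. Rps27l, the p53-responsive partner of Rps27, was at 370, 425 and 371 CPM in control and 461, 533 and 358 with IGF-1. Its log2 fold change was 0.21 ± 0.15 (SE), with an edgeR adjusted p of 0.648 on all 6 libraries. Rps27 itself was at 1112, 1221 and 1130 CPM in control and 1117, 1165 and 737 with IGF-1, a log2 fold change of -0.20. The difference between the partners was not tested.

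Rps27rt, a retrotransposed copy of Rps27, was at 26.2, 26.3 and 26.3 CPM in control and at 25.1, 27.9 and 16.4 with IGF-1. Of the 100-base stretches of its transcript 89.5% also occur in transcripts of other genes in GENCODE M21, and 98.4% of those of Rps27 do, largely in each other, so the counts of these genes are uncertain. Rpl22l1, the paralog of Rpl22, was at 68.3, 77.9 and 71.5 CPM in control and 76.0, 77.7 and 59.8 with IGF-1. Rpl22 was at 180, 214 and 219 CPM in control and 188, 192 and 161 with IGF-1. Their log2 fold changes were -0.03 and -0.18, and both pairs of groups overlapped.

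Rpl39l, the paralog of Rpl39 best known from the testis, was low, at 1.32, 1.44 and 2.06 CPM in control and 2.91, 2.23 and 2.73 with IGF-1. The groups did not overlap, but the log2 fold change of 0.71 ± 0.51 (SE) had an edgeR adjusted p of 0.657. None of its 100-base stretches occurs in another gene's transcript. Rpl36al was at 10.3, 10.1 and 10.3 CPM in control and 13.9, 12.8 and 8.47 with IGF-1, and its partner Rpl36a at 160, 218 and 187 against 209, 226 and 143. The log2 fold changes were 0.19 ± 0.25 (SE) and 0.03 ± 0.18 (SE).

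Divided by transcript length, the members with one spanned more than 3 orders of magnitude in level. The highest mean levels in CPM per kilobase were those of Rps27 (3131), Rps14 (3050) and Rpl41 (2575), and Rpl37a was at 2215. The lowest were those of Rpl24 (1.08), Rps10 (1.65), Rpl39l (3.84), Rpl13a (17.1) and Rpl36al (20.9). This order covers the 82 members with a transcript length, which leaves out the tested members Rpl35rt and Rpl6l and, under 10 CPM, Rpl37rt, Rps4x-ps, Rps3a2 and Rps3a3. Rps27 and Rps14 are neighbours in this order whose library ranges overlap. Lengths were taken from GRCm38 transcripts and the counts were made on GRCm39, so these levels are approximate.

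Several core members with few counts share sequence or exons with other genes. Rps10 had 20 to 70 counts per library, and Rps10-ps2, a numbered pseudogene row, had 1388 to 1703. Of the exon bases of Rps10 28.7% lie within other annotated genes, including the read-through gene RPS10-NUDT3, and 61.8% of its 100-base stretches occur in another gene's transcripts. For Rpl24, at 0.32, 1.23 and 0.70 CPM in control and 0.64, 0.58 and 0.91 with IGF-1, these shares were 47.0% and 80.1%, with the predicted gene Gm28037. For Rpl13a they were 35.4% and 55.2%, with Gm45713, and for Rpl36al 24.5% and 59.0%, with Gm49383. Exon overlap was not limited to members with few counts. It was 66.2% for Rpl35 (mean 575 CPM), 26.7% for Rpl5 (1250 CPM) and 25.3% for Rpl31 (584 CPM), and 0% for Rps14 (1821 CPM).

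Sharing alone did not order the levels. The 45 members with up to 50% of their 100-base stretches shared had a median of 761 CPM per kilobase, the 34 with 50 to 90% a median of 598, and the 3 above 90% a median of 1809. The handling of reads that fit several genes is not stated. The levels of Rps10, Rpl24, Rpl13a, Rpl36al and Rps18 are therefore uncertain, and the part of read assignment in them was not tested.

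The members moved together over the 6 libraries. For the 81 members of at least 10 CPM, the median of the 3240 pairwise correlations of log2 CPM was 0.78, and 45.4% of the pairs were over 0.8. With the mean of the other members, 58 of the 81 had r over 0.8 and 37 over 0.9, highest for Rpl37 (0.996), Rps7 (0.993) and Rpl38 (0.991). The lowest were Rps18 (0.30), Rps2 (0.33), Rpl4 (0.35) and Rpl13 (0.44). Of 8484 other genes of at least 10 CPM, 3.56% had r over 0.8 with the family mean, and their median was -0.04. The points share the same 6 libraries and the same scaling, and the low value of IGF-1 replicate 3 enters all of them. Without that library the median pairwise r was 0.50, with 22.4% of the pairs over 0.8, and 29 of the 81 members had r over 0.8 with the mean of the others. The share of other genes over 0.8 was then 7.78%.

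The 10 other genes most like the family mean over the 6 libraries were Gm15772 (r = 0.998), Mrfap1 (0.997), Pcyox1 (0.995), Ndufb1 (0.992), Ubl5 (0.99), Cops9 (0.987), Bmp2k (0.986), Ei24 (0.986), S100a13 (0.985) and D17H6S53E (0.978). Ndufb1, a subunit of respiratory complex I, was at 172, 205 and 179 CPM in control and 191, 219 and 116 with IGF-1. Ubl5, a ubiquitin-like protein, was at 369, 387 and 371 CPM in control and 408, 433 and 285 with IGF-1. Of the 50-base stretches of Rpl26, 60.6% also occur in Gm15772, and how reads that fit both were counted is not stated.

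Ribosomal proteins whose symbols fall outside the family rule gave like values. Fau, whose product contains Rps30, was at 483, 538 and 528 CPM in control and 496, 528 and 395 with IGF-1. Rack1, which sits at the head of the small subunit, was at 1117, 1042 and 1033 CPM in control and 1108, 1178 and 894 with IGF-1. Their log2 fold changes were -0.13 and -0.01.

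Other mRNAs with TOP starts that encode translation factors showed no common direction. Of 22 tested, 11 were above 0 and 11 below, with a median log2 fold change of 0.01, and 0 passed the adjusted threshold. Only 0.497% of all genes tested passed it, so 0 in a short list says little. By edgeR, 9.09% of the 22 had an unadjusted p under 0.05, against 11.8% of all genes tested. The groups did not overlap for 22.7%, against 18%. Npm1, a nucleolar chaperone, was at 411, 468 and 430 CPM in control and 543, 546 and 481 with IGF-1, without overlap, with a log2 fold change of 0.26 and an edgeR adjusted p of 0.403. Eif3l, a subunit of initiation factor 3, was at 235, 179 and 189 CPM in control and 150, 164 and 174 with IGF-1, also without overlap, with a log2 fold change of -0.31 and an edgeR adjusted p of 0.419. The 6 snoRNA host genes with TOP starts had a median of 0.13, with 4 above 0, and 0 passed.

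Genes that build ribosomes also gave no call at the adjusted threshold, which 0.497% of all genes tested passed. Of 23 chaperones and assembly factors tested, 13 were above 0 and 0 passed, with a median log2 fold change of 0.07. Their edgeR p was under 0.05 unadjusted for 4 higher and 1 lower, 21.7% against 11.8% of all genes tested. The groups did not overlap for 34.8%, against 18% of all genes tested. Ltv1, which acts in small-subunit export, was at 47.1, 48.6 and 40.04 CPM in control and 74.5, 60.2 and 56.9 with IGF-1, with a log2 fold change of 0.50 ± 0.15 (SE) and an edgeR adjusted p of 0.211. Rpf2, which loads 5S rRNA, had 0.60 ± 0.18 (SE) and an edgeR adjusted p of 0.213. Of 16 nucleolar rRNA factors 10 were above 0, with a median of 0.04 and 0 passing. For these, 6.25% had an unadjusted edgeR p under 0.05 and 6.25% did not overlap. Nop58, a core protein of box C/D snoRNPs, was at 80.1, 95.9 and 86.9 CPM in control and 102, 107 and 108 with IGF-1, with a log2 fold change of 0.27 and an edgeR adjusted p of 0.421.

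Regulators that read mTORC1 toward TOP mRNAs had a median of -0.10 over 14 genes, 6 above 0, and 0 passed. An unadjusted edgeR p under 0.05 was reached by 7.14%, against 11.8% of all genes tested, and 35.7% did not overlap, against 18%. Rps6ka1, a kinase of Rps6 downstream of ERK, was at 42.6, 35.9 and 49.4 CPM in control and 65.3, 56.1 and 59.7 with IGF-1, with a log2 fold change of 0.50 and an edgeR adjusted p of 0.211. Of 51 initiation factors tested 36 were above 0 with a median of 0.08, and 0 passed. Here 7 were higher and 3 lower at an unadjusted edgeR p under 0.05 (19.6%), and 33.3% did not overlap. Eif2s1, the eIF2α subunit that stress kinases phosphorylate, came closest at 161, 189 and 176 CPM in control and 261, 292 and 257 with IGF-1. Its log2 fold change was 0.63 ± 0.12 (SE) with an edgeR adjusted p of 0.0635, and its groups were well apart.

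Mitochondrial ribosomal proteins, which serve the separate ribosome of mitochondria, were mostly above 0. Of 79 tested, 67 were above 0 and 12 below, with a median log2 fold change of 0.15 and 0 passing. At an unadjusted edgeR p under 0.05, 4 were higher and 0 lower (5.06%, against 11.8% of all genes tested). Without IGF-1 replicate 3 the median was 0.23, again with 67 above 0, beside 70 of 88 for the cytosolic family. Mrps22 was at 29.97, 30.9 and 29.3 CPM in control and 36.5, 44.5 and 41.1 with IGF-1, with a log2 fold change of 0.44 and an edgeR adjusted p of 0.258. The difference between the mitochondrial and cytosolic sets was not tested.

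Short abundant mRNAs that encode no ribosomal protein, a comparison for length, were above 0 in 25 of 26 cases. Their median was 0.22 with 0 passing, although IGF-1 replicate 3 was also the lowest IGF-1 library in 24 of them. At an unadjusted edgeR p under 0.05, 6 were higher and 0 lower (23.1%, against 11.8% of all genes tested). Tmsb4x, which encodes thymosin beta 4, was at 9028, 8530 and 7370 CPM in control and 13671, 15247 and 9065 with IGF-1, with a log2 fold change of 0.61 and an edgeR adjusted p of 0.175. Among measures of RNA quality, mitochondrially encoded mRNAs summed to 19690 CPM in IGF-1 replicate 3, to 23280 and 21640 in the other IGF-1 libraries and to 15790 to 20450 in the controls. The 5 nuclear long noncoding RNAs summed to 2344 CPM in IGF-1 replicate 3, to 1794 and 1292 in the other IGF-1 libraries and to 1730 to 2986 in the controls. In both measures replicate 3 was the extreme of the IGF-1 libraries and lay within the range of all others. Their part in the levels of ribosomal protein mRNAs was not tested.

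**Figure D5:**
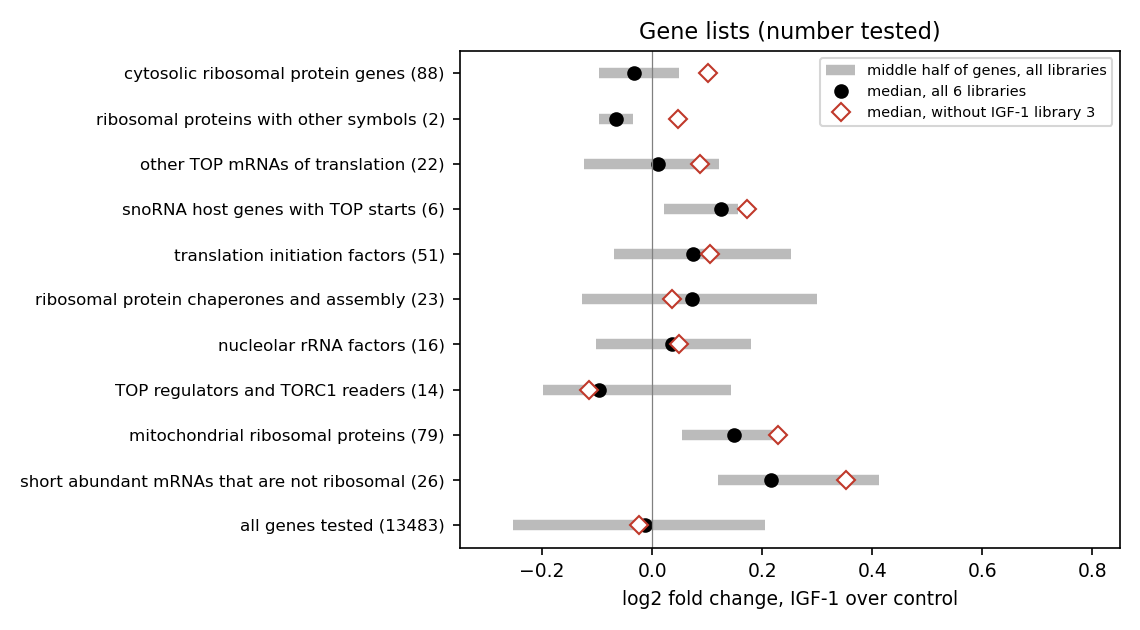
Median log2 fold change (IGF-1 over control) of each gene list on all 6 libraries and without IGF-1 replicate 3. The cytosolic ribosomal protein list moves from -0.03 to 0.10, while the mitochondrial ribosomal protein list is at 0.15 and 0.23.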

How the data were processed

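RNA was measured in 6 libraries of sorted ILC3s, made with the Takara SMART-Seq HT chemistry, per the labels' protocols. The values the authors deposited are unnormalised counts. The submitters' processing notes name featureCounts 1.5.3, HISAT2 2.2.1, fastp 0.23.2, SAMtools 1.15.1 and the build GRCm39. The annotation, the strand setting and the multi-mapping treatment were not given in the sources used here.

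Genes were kept by edgeR's filterByExpr (minimum count 10, minimum total 15), which left 13483 of 33157 rows and removed 0.0806% of the counts; 88 rows repeat a symbol. Differences were tested in edgeR 4.0.16 (R 4.3.3) with TMM scaling, glmQLFit and glmQLFTest, a group term only, and p-values adjusted by Benjamini-Hochberg over all genes kept, at 0.05. CPM uses TMM-scaled library sizes, and SE is the fold change divided by the square root of F. The procedure was tested on simulated data with genes drawn independently and no outlying library. The planted changes were larger than any among members of at least 10 CPM. The simulation thus cannot show how changes as small as theirs would be detected. No p was computed over the family or a list. For any gene taken alone, the smallest p of an exact permutation test of 3 against 3 is 0.1.

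The members and lists were chosen with earlier results of these data known. Named were the 10 members with the smallest p, those with the 5 highest and 3 lowest fold changes among members of at least 10 CPM, the 5 with the highest CPM, Rps6, Rpsa, the P stalk and the paralogs with their partners. From each other list the 2 genes with the smallest p could be named, and the 10 genes most like the family mean were named by Pearson's r. The other genes, among them those with the largest differences in IGF-1 replicate 3, the highest or lowest level per length and the members with few counts, were named after their values were seen. A few genes that these rules would name are not reported here. Coding and transcript lengths and shared stretches (50 and 100 bases) came from GENCODE M21 on GRCm38, using the transcript with the longest coding sequence. Start windows came from RefSeq on GRCm38.p6; no coordinates were converted. Library pairs within a group had chi-square values over degrees of freedom from 37.0 to 82.8, so none was a duplicate. Alternatives were DESeq2 1.42.0, limma-voom (limma 3.58.1), a replicate block, other scalings, filters and thresholds, and each library left out.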

Additional observations from a re-analysis of the deposited data

How the results depend on the processing

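With every alternative run, 0 of the tested members were called in either direction, and of 1313 values of single members under alternatives 0 were called and 126 had the other sign, 35 of these without IGF-1 replicate 3. The members' median log2 fold change ran from -0.07 (library size scaling) to -0.02 (upper quartile scaling) among the other scalings, DESeq2, limma-voom, the filters and the fits without the paralogs. With each library left out in turn it ran from -0.13 to 0.10, above 0 when control replicate 2 or IGF-1 replicate 3 was left out. With only members of at least 10 CPM, an alternative chosen after seeing the data, it was -0.03. The median pairwise correlation of the members fell from 0.78 to 0.50 without IGF-1 replicate 3, also tried after seeing the data. With 0.497% of all genes called in the main fit, a count over 88 members had little room to move. The counts over all genes did move. From 31 higher and 36 lower, they became 200 and 256 with DESeq2, 171 and 258 with no filter, 63 and 115 with a stricter filter, 57 and 87 at an adjusted p under 0.1, and 1 and 1 at 0.01, and limma-voom gave 60 lower. Leaving out single libraries gave 0 to 24 higher and 0 to 31 lower; the cause was not tested. With the replicate number as a block, 3 genes were higher and 5 lower and 0 members were called (median -0.04, smallest adjusted p 0.607). Same-numbered libraries correlated at -0.24, -0.11 and 0.19 in their deviations from the group means, so the numbers are not shown to pair the samples. The depth limits the statements on the 7 tested members under 10 CPM.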

Other observations

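The table also holds 235 rows of numbered ribosomal protein pseudogenes that the family rule leaves out, of which 61 had no counts. Together they held 0.0778% to 0.0949% of the counts of a library, lowest in IGF-1 replicate 3, the library that was also lowest in the members. For 47 members such rows exist, and for 6 of them the rows held more than 0.1 of the counts of the member. The ratio was 0.386 for Rpl23a, 0.371 for Rps18, 0.231 for Rpl17, 0.186 for Rpl14 and 0.128 for Rpl21. For Rps10 it was 49.6, the only member with more counts in its pseudogene rows than in its own.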
